A study of Sus scrofa with 8 samples.

Results

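The genes described here control or mark the last stage of the cartilage cell's life, hypertrophy, and the loop of secreted signals that holds it back. They were 10 genes chosen by symbol (COL10A1, IHH, PTH1R, PTHLH, PANX3, MEF2C, MEF2D, SLC13A5, FOXA2 and FOXA3), all 10 of which were found once each among the 18898 genes of the table. Strand-specific RNA-seq after rRNA depletion measured transcripts in cartilage cells of the mandibular condyle, the jaw-side surface of the pig temporomandibular joint. The 4 control and 4 osteoarthritis samples all carried the wild-type genotype. In the osteoarthritis group a biopsy punch of 5.0 mm had made a hole in the rear outer part of the joint disc, the fibrous pad that separates the condyle from the skull, and the condyle itself was shielded. The labels give no age, sex or time after surgery, do not say whether control joints had sham surgery, and do not tie samples to single animals. The p-values therefore reflect only how far these samples spread, which may be technical.

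In growing cartilage, chondrocytes that stop dividing secrete Indian hedgehog (IHH), which induces parathyroid hormone-related protein (PTHrP, encoded by PTHLH) in cells nearer the joint surface. PTHrP acts through its receptor PTH1R and keeps chondrocytes from becoming hypertrophic, so the pair sets where hypertrophy begins. In mouse, MEF2C and the forkhead factors FOXA2 and FOXA3 switch on the hypertrophic program, whose main product is type X collagen (COL10A1). The mandibular condyle is a secondary cartilage that keeps a hypertrophic zone above the bone.

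Total estimated counts were 13028760 to 19710638 in controls and 11354200 to 25412939 in osteoarthritis. Levels are given as CPM, counts scaled to library size by TMM, and per unit length as the deposited TPM. Short non-coding and ribosomal RNA genes took 53.0% to 63.0% of all TPM in controls and 32.0% to 40.3% in osteoarthritis, and TPM of all genes sum to the same total in each library. Over all 16020 tested genes, the median log2 ratio of group mean TPM, osteoarthritis over control, was 1.81. The median log2 fold change fitted to TMM-scaled counts was 0.0049. Control replicates 1 and 3 and osteoarthritis replicates 1 and 2 were the most alike pairs of their groups (chi-square per gene 37.8 and 35.7, against 129.6 to 545.5 for other pairs within a group), but differed by far more than the value near 1 of sampling noise and were kept as separate samples. Control replicate 2 had the smallest protein-coding share, 49.7% of its counts against 71.5% to 73.9% in the other controls. The cartilage label was checked on 16 matrix genes, whose summed CPM was 7945 to 18149 in controls and 21886 to 149690 in osteoarthritis. Of the 15 tested, 0 were called by edgeR, 13 were higher with an unadjusted p below 0.05, and the counts called were 12 by DESeq2, 1 by limma-voom and 13 by its weighted form. Epithelial markers summed to 98.1 to 385.5 CPM in controls and 4.19 to 7.28 CPM in osteoarthritis, and 5 of 8 tested fell by edgeR, among them the keratins KRT5 and KRT14 (the others were TP63, COL17A1 and ESRP1, and COL17A1 lost its call without osteoarthritis replicate 2 or 4). Of 14 genes of fibrous and superficial layers, 1 rose by edgeR, PRG4, the lubricin gene (2.96 ± 0.39, edgeR adjusted p = 0.018, and 0.057 to 0.090 without control replicate 3 or osteoarthritis replicate 1, 2 or 4), and the list median was -0.06 on the log2 scale. In bulk samples, fewer cells of a type and less RNA per cell cannot be told apart.

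Fitted levels in osteoarthritis were 2.21 to 9.04 times those of controls for 8 of the 10 genes and 1.44 times for MEF2D. PTHLH, whose direction depends on the scaling, was at 0.814 times. By edgeR's quasi-likelihood test 0 of the 10 passed an adjusted p of 0.05 over all genes, where 0.618% of all tested genes passed. Those 8 were higher at an unadjusted edgeR p under 0.05, as were 7.52% of all tested genes. Called higher by DESeq2 were 8, against 2.38% of all genes, and by limma-voom 0, against 0.243%. With sample weights limma-voom called 8 higher, against 12.3% of all genes. In 6 of the 10 (COL10A1, IHH, PTH1R, PANX3, MEF2C and SLC13A5) every osteoarthritis library lay above every control in CPM, which held for 5.69% of all tested genes. In TPM this was so for 9 of the 10, but also for 70.7% of all tested genes. The 10 were chosen with earlier results of these data known, so these comparisons with all genes are no independent test. All 10 passed the filter on low counts; FOXA2 and FOXA3 did so in 4 osteoarthritis and 3 control libraries and PTHLH in 2 of each group.

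**Figure D1:**
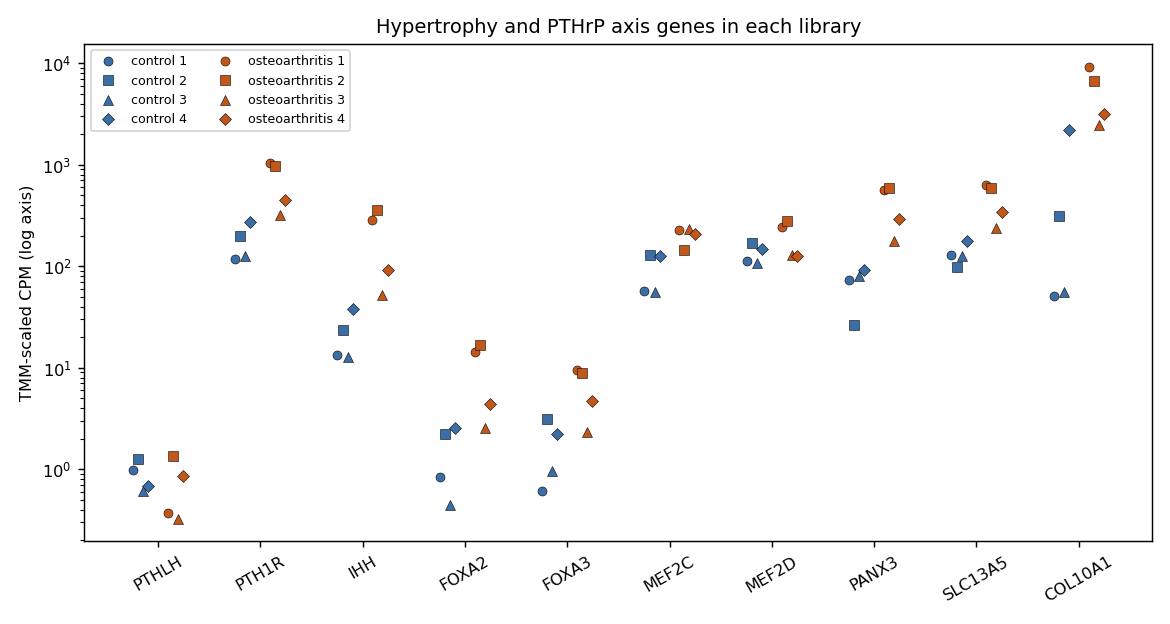
TMM-scaled CPM on a log axis for each of the 10 genes, with 1 point per library, blue for control and orange for osteoarthritis, and the marker shape giving the replicate number. Osteoarthritis points lie above all control points for 6 genes, and PTHLH sits near 1 CPM in both groups.

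PTHLH encodes the ligand of the loop and had the lowest mean CPM of the 10 genes in each group (ENSSSCG00000036893; RefSeq places it on Sscrofa11.1 chromosome 5, 45750968 to 45763421). Its counts were 13, 8, 7 and 14 in the controls and 6, 16, 11 and 32 in the osteoarthritis libraries, each in the order of replicates 1 to 4, which is kept below. On the CPM scale these were 0.994, 1.26, 0.616 and 0.686 in controls and 0.369, 1.35, 0.325 and 0.855 in osteoarthritis. The groups overlapped, with the highest and the lowest library both in osteoarthritis. A log2 fold change of -0.30 ± 0.54 was fitted (standard error; edgeR adjusted p = 0.84), and its sign turned to 0.36 with library size as the only scaling. In TPM the ratio of group means was 1.25 on the log2 scale, below the 1.81 of the median gene. These values rest on 42 counts over all controls and 65 over all osteoarthritis libraries.

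PTH1R, the receptor through which PTHrP and parathyroid hormone signal, was abundant (ENSSSCG00000011326; chromosome 13, 29749940 to 29775361). Control replicates 1 to 4 had 118, 199, 126 and 270 CPM, and osteoarthritis replicates 1 to 4 had 1035, 962, 317 and 446 CPM. The groups did not overlap, and osteoarthritis replicates 1 and 2 stood well above replicates 3 and 4. Its log2 fold change was 1.95 ± 0.47 (edgeR adjusted p = 0.11). The receptor-to-ligand ratio in TPM, log2 PTH1R over PTHLH, was 6.05 ± 0.77 (SD, n = 4) in controls and 8.62 ± 0.83 (SD, n = 4) in osteoarthritis without overlap, and was not tested. This ratio rests on only 6 to 32 PTHLH counts per library. The share of all genes whose ratio to PTHLH separates in this way was not counted.

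IHH is the secreted hedgehog signal of prehypertrophic chondrocytes (ENSSSCG00000016204; chromosome 15, 121083750 to 121090548). Its level was 13.2, 23.3, 12.8 and 37.5 CPM in control replicates 1 to 4 and 287, 355, 51.7 and 92.5 CPM in osteoarthritis replicates 1 to 4. The lowest osteoarthritis library, replicate 3, was 51.7 CPM against 37.5 CPM in the highest control, replicate 4. The log2 fold change of 3.18 ± 0.67 was the largest of the 10 (edgeR adjusted p = 0.081), higher than 99.8% of the fold changes of all tested genes. In TPM, log2 IHH over PTHLH lay at 2.13 to 4.21 in controls and 5.74 to 8.05 in osteoarthritis, and log2 IHH over PTH1R at -3.34 to -2.91 and -2.72 to -1.38. Neither ratio overlapped between groups, and the first rests on few PTHLH counts. The share of all genes whose ratios to PTHLH or PTH1R separate in this way was not counted.

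FOXA2 and FOXA3 encode forkhead transcription factors known from liver and gut, and in mouse also from hypertrophic chondrocytes. FOXA2 (ENSSSCG00000007114; chromosome 17, 29997397 to 30001704) had 11, 14, 5 and 52 counts in the controls and 235, 198, 86 and 164 in the osteoarthritis libraries. That was 0.841, 2.20, 0.44 and 2.55 CPM in controls and 14.4, 16.8, 2.54 and 4.38 CPM in osteoarthritis. Osteoarthritis replicate 3 lay just under control replicate 4 (2.542 and 2.549 CPM), so the groups overlapped by that pair. The log2 fold change was 2.64 ± 0.74 (edgeR adjusted p = 0.15).

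FOXA3 (ENSSSCG00000003092; chromosome 6, 52181095 to 52188777) had 8, 20, 11 and 45 counts in the controls and 154, 104, 79 and 175 in the osteoarthritis libraries. On the CPM scale it was at 0.611, 3.15, 0.968 and 2.21 in controls and 9.47, 8.80, 2.33 and 4.67 in osteoarthritis. Control replicate 2 exceeded osteoarthritis replicate 3. The fold change was 1.89 ± 0.60 on the log2 scale (edgeR adjusted p = 0.19). FOXA1, the remaining FOXA gene, was listed but not found by symbol among the genes measured. Since these factors also mark endoderm, a list of 17 liver and endoderm genes was read beside them. Of the 6 tested, 2 rose by edgeR, AFP and APOB, which encode a fetal plasma protein and a lipoprotein. AFP and APOB had 0 counts over the 4 controls and 329 and 257 over the osteoarthritis libraries, and AFP lost its call whichever of the 8 libraries was left out, APOB in 7 of the 8 cases (all but control replicate 4). The summed list was at 6.42 to 50.6 CPM in controls and 22.3 to 42.4 CPM in osteoarthritis. The part of such cells in the FOXA2 and FOXA3 values was not tested.

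MEF2C and MEF2D are MADS-box transcription factors, of which MEF2C is required for chondrocyte hypertrophy in mouse and both also act in muscle. MEF2C (ENSSSCG00000014149; chromosome 2, 96122407 to 96296927) was measured at 57.6, 129, 55.9 and 125 CPM in control replicates 1 to 4. Osteoarthritis replicates 1 to 4 had 227, 144, 233 and 209 CPM. The groups were apart by a small margin, between 129 CPM in control replicate 2 and 144 CPM in osteoarthritis replicate 2. Its log2 fold change was 1.15 ± 0.34 (edgeR adjusted p = 0.17).

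MEF2D (ENSSSCG00000006482; chromosome 4, 93581563 to 93616980) had 112, 170, 107 and 148 CPM in control replicates 1 to 4 and 242, 278, 129 and 126 CPM in osteoarthritis replicates 1 to 4. Osteoarthritis replicates 3 and 4 lay inside the control range. For MEF2D the fitted value was 0.53 ± 0.32 on the log2 scale (edgeR adjusted p = 0.47). Skeletal muscle, which also uses MEF2 factors, was represented by 6 of 9 listed genes, which summed to 8.89 to 18.9 CPM in controls and 2.28 to 25.6 CPM in osteoarthritis. Of its 4 tested genes, 0 were called by edgeR, DESeq2 or limma-voom, 0 had an unadjusted edgeR p under 0.05, and 1 was called with sample weights. Endothelium, another source of MEF2C, was at a summed 146.7 to 297.5 CPM in controls and 250.5 to 353.1 CPM in osteoarthritis. Among its 7 genes 0 were called by edgeR, DESeq2 or limma-voom and 5 by limma-voom with sample weights, and KDR, a VEGF receptor, alone had an unadjusted edgeR p under 0.05 (log2 fold change 1.08 ± 0.43, edgeR adjusted p = 0.29). The part of endothelial cells in the MEF2C value was not tested.

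PANX3 encodes a pannexin channel of prehypertrophic chondrocytes and osteoblasts (ENSSSCG00000015194; chromosome 9, 51854148 to 51860330). It was at 72.9, 26.5, 79.6 and 92.4 CPM in control replicates 1 to 4 and at 559, 585, 178 and 289 CPM in osteoarthritis replicates 1 to 4. Control replicate 2 was the lowest library and the groups did not overlap. Its log2 fold change was 2.57 ± 0.50, with the smallest p of the 10 (edgeR adjusted p = 0.064).

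SLC13A5 encodes a citrate transporter of the cell membrane that liver and mineralising tissues use (ENSSSCG00000017888; chromosome 12, 50679900 to 50710985). Control replicates 1 to 4 had 130.1, 98.9, 127 and 176 CPM and osteoarthritis replicates 1 to 4 had 629, 589, 236 and 344 CPM. All osteoarthritis libraries exceeded the highest control. The log2 fold change was 1.75 ± 0.36 (edgeR adjusted p = 0.076). It alone passed with a single library left out, osteoarthritis replicate 3 (1.95, edgeR adjusted p = 0.045).

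SLC13A5 also stood apart in the deposited effective length, which for a gene with several transcript models depends on the models to which reads were assigned. The effective length was 8355, 8428, 9760 and 8581 bases in control replicates 1 to 4 and 6446, 6154, 6289 and 6531 bases in osteoarthritis replicates 1 to 4. The groups did not overlap and their means differed by -0.47 on the log2 scale. Such a downward separation with a difference of at least 0.2 was found in 2.79% of tested genes. MEF2C separated the other way by 0.26, at 4234 to 5049 bases in controls and 5129 to 6081 bases in osteoarthritis, and 1.12% of tested genes did so by at least 0.2. The remaining 8 genes overlapped in effective length. These lengths enter TPM but not CPM, and they were not tested.

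COL10A1, the collagen of hypertrophic cartilage, was the most variable of the 10 (ENSSSCG00000004436; chromosome 1, 81766829 to 81773818). Control replicates 1 to 4 had 50.7, 315, 55.2 and 2209.6 CPM, and osteoarthritis replicates 1 to 4 had 9259, 6704, 2469.6 and 3151 CPM. Control replicate 4 came close to the lowest osteoarthritis library, replicate 3, while control replicates 1 and 3 were far below every other library. The log2 fold change was 3.04 ± 1.22 (edgeR adjusted p = 0.29), and 5.27 without control replicate 4 (edgeR adjusted p = 0.053). In TPM, log2 COL10A1 over PTH1R was 2.76 to 3.19 in the 4 osteoarthritis libraries and 3.01 in control replicate 4, but -1.36, 0.69 and -1.27 in control replicates 1 to 3.

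Markers of bone were low in control replicates 1 and 3, like COL10A1, but high in both others. The 8 osteoclast genes in the table summed to 39.7, 1844, 48.6 and 2201 CPM in control replicates 1 to 4 and to 1394 to 2916 CPM in osteoarthritis. The 11 osteoblast and osteocyte genes summed to 434, 2641, 457 and 2878 CPM in those controls and to 3267 to 4757 CPM in osteoarthritis. MMP9, a gelatinase of osteoclasts, was at 2.98 and 6.25 CPM in control replicates 1 and 3, and ACP5, the tartrate-resistant phosphatase, at 6.96 and 11.6 CPM. Neither list held a gene called by edgeR, with 0 of 8 and 1 of 11 at an unadjusted p under 0.05. By DESeq2 0 and 1 were called, by limma-voom 0 and 0, and with sample weights 7 and 9. The weighted fit called 3329 of all 16020 genes. Macrophage genes were likewise low in control replicates 1 and 3, at a summed 30.9 and 31.1 CPM, against 614.7 and 577.2 CPM in replicates 2 and 4 and 147.5 to 492.6 CPM in osteoarthritis. Of these 7 genes, 0 were called by edgeR, DESeq2 or limma-voom, 0 had an unadjusted edgeR p under 0.05, and 3 were called with sample weights. Control replicate 2 did not follow this order: its bone and macrophage sums were near those of replicate 4, while its COL10A1 was at 315 CPM against 2209.6 CPM. The part of bone in the COL10A1 values was not tested.

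**Figure D2:**
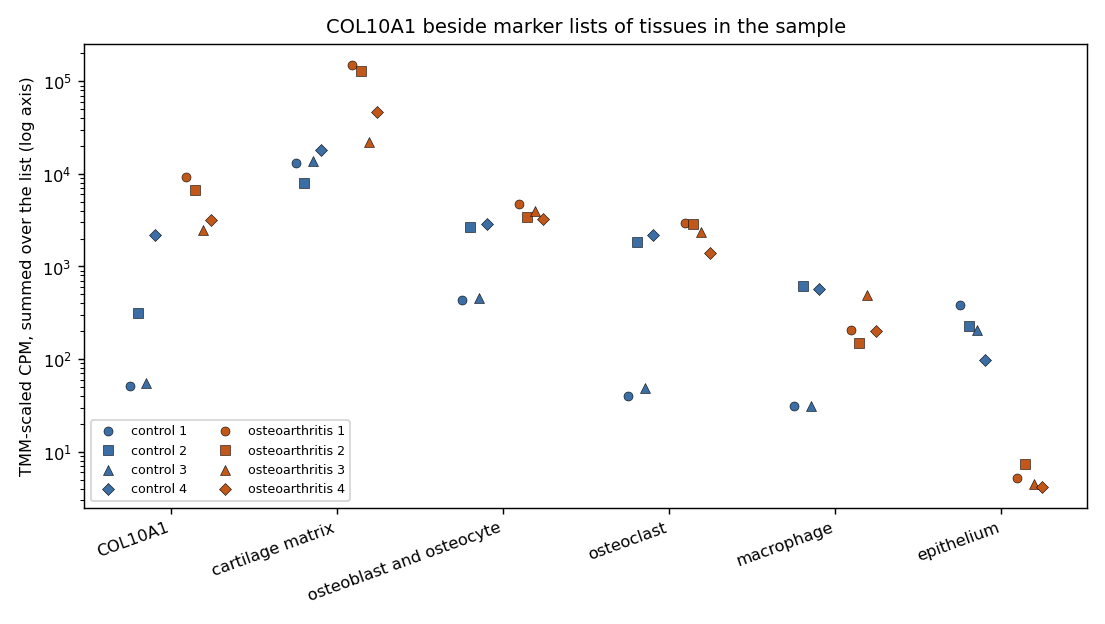
COL10A1 and the summed CPM of 5 marker lists on a log axis, with 1 point per library and the same colours and shapes as above. Control replicates 1 and 3 are low for COL10A1, osteoblast, osteoclast and macrophage genes, but not for cartilage matrix genes, and epithelial genes separate the groups in the opposite direction.

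The other abundant genes spread less among controls. IHH was at 12.8 to 37.5 CPM over the 4 controls, PTH1R at 118 to 270 CPM and SLC13A5 at 98.9 to 176 CPM, and PANX3 and SLC13A5 were lowest in replicate 2. Among osteoarthritis libraries, IHH, PTH1R, PANX3, SLC13A5, FOXA2, FOXA3, MEF2D and COL10A1 were all higher in replicates 1 and 2 than in 3 and 4, as was the cartilage matrix sum (149690, 129236, 21886 and 47022 CPM in replicates 1 to 4). MEF2C and PTHLH were the exceptions, and MEF2C had its lowest osteoarthritis value in replicate 2.

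**Figure D3:**
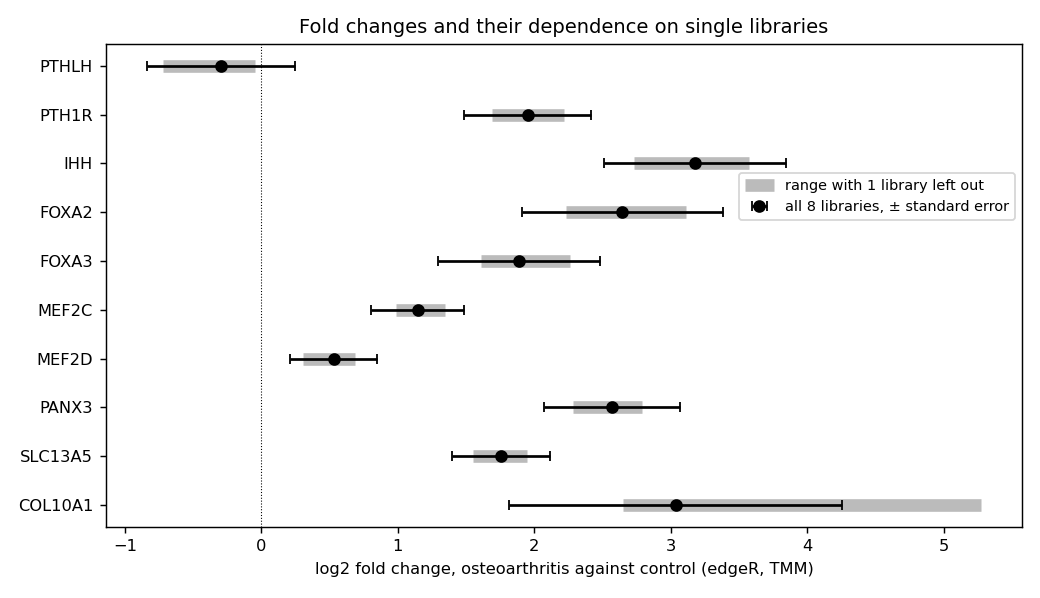
Log2 fold change of osteoarthritis against control for each gene (black points, all 8 libraries; bars, standard error), over the range of values with 1 library left out (grey). PTHLH lies just below 0, with a standard error that crosses 0 and a grey range of -0.72 to -0.05. The grey range is widest for COL10A1, 2.65 to 5.27.

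Because the share of cartilage in a bulk sample can move every cartilage gene, each gene was also set against COL2A1, the type II collagen of the same library, in TPM. COL2A1 itself had 5012 to 11919 CPM in controls and 12816 to 102379 CPM in osteoarthritis (log2 fold change 2.95, edgeR adjusted p = 0.14). A gene with unchanged CPM is therefore lower relative to COL2A1 in osteoarthritis. Log2 IHH over COL2A1 was -7.59 ± 0.59 in controls and -7.21 ± 0.26 in osteoarthritis, and log2 PANX3 over COL2A1 was -4.78 ± 0.50 and -4.87 ± 0.73. The same ratio for FOXA2 was -11.23 ± 1.13 and -11.28 ± 0.24. For these 3 genes the difference was smaller than the SD of the controls. This also held for COL10A1 (1.90 against an SD of 2.24) and FOXA3 (-0.65 against 1.14). COL10A1 was at -6.08, -3.14, -6.02 and -1.54 in control replicates 1 to 4 and at -2.85 to -1.47 in osteoarthritis. PTH1R, SLC13A5, MEF2C and FOXA3 had a lower mean ratio in osteoarthritis with overlap, differing by -0.73, -0.46, -1.62 and -0.65. In TPM the values for SLC13A5 and MEF2C also carry their differences in effective length (-0.47 and 0.26 on the log2 scale). PTHLH and MEF2D were lower relative to COL2A1 in every osteoarthritis library than in any control, at -15.6 to -12.8 against -11.7 to -9.43 for PTHLH and -8.51 to -6.57 against -6.26 to -4.70 for MEF2D. These ratios were not tested, and the share of all genes that separate from COL2A1 in this way was not counted.

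**Figure D4:**
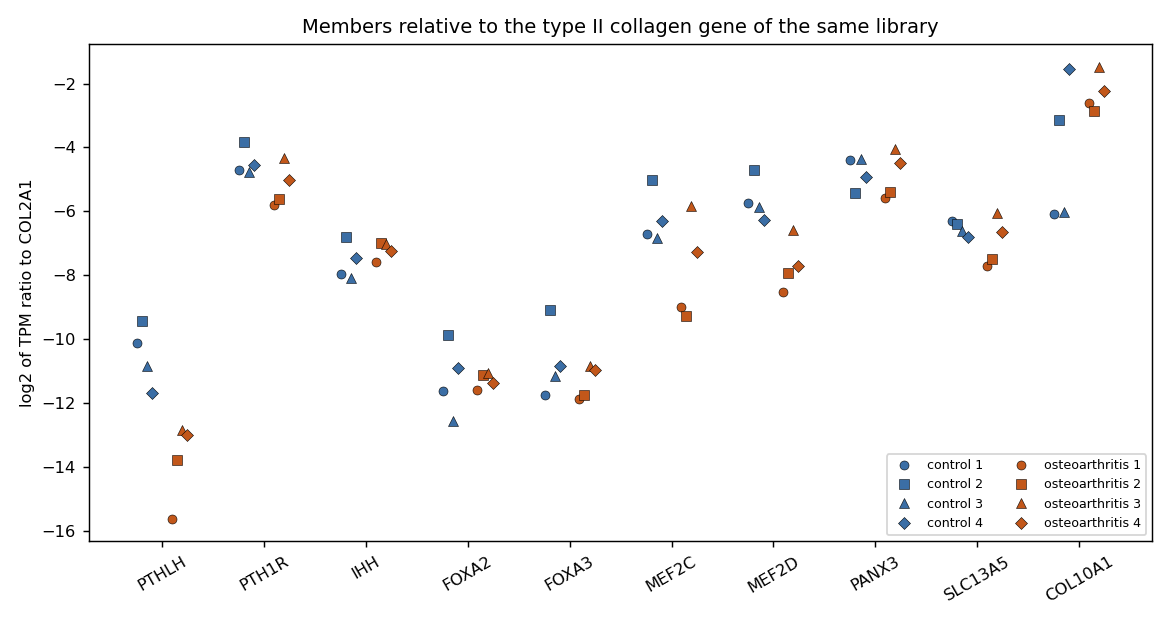
Log2 of the TPM ratio of each gene to COL2A1 in the same library, with 1 point per library. IHH, PANX3 and FOXA2 overlap between groups, COL10A1 spans the widest control range (-6.08 to -1.54), and PTHLH and MEF2D are lower in all osteoarthritis libraries. The share of all genes that separate from COL2A1 in this way was not counted.

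Ranked per unit length, COL10A1 had the highest TPM of the 10 in all 4 osteoarthritis libraries (3943 ± 1546, SD, n = 4), followed by PANX3 (638 ± 147) and PTH1R (517 ± 143). SLC13A5 (148 ± 31.1) and IHH (144 ± 84.5) came next, then MEF2D (91.8 ± 25.3) and MEF2C (84.8 ± 33.5). FOXA2 (8.57 ± 5.00), FOXA3 (7.40 ± 2.61) and PTHLH (1.39 ± 0.63) closed the order. The means of PANX3 and PTH1R, of SLC13A5 and IHH, of MEF2D and MEF2C, and of FOXA2 and FOXA3 differed by less than their SDs, although PANX3 exceeded PTH1R in each of the 4. In controls the order was less stable. COL10A1 led in control replicates 2 and 4 and came after PANX3, PTH1R and MEF2D in replicates 1 and 3. IHH was the 7th of 10 in every control, and the 4th, 4th, 7th and 5th in osteoarthritis replicates 1 to 4.

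**Figure D5:**
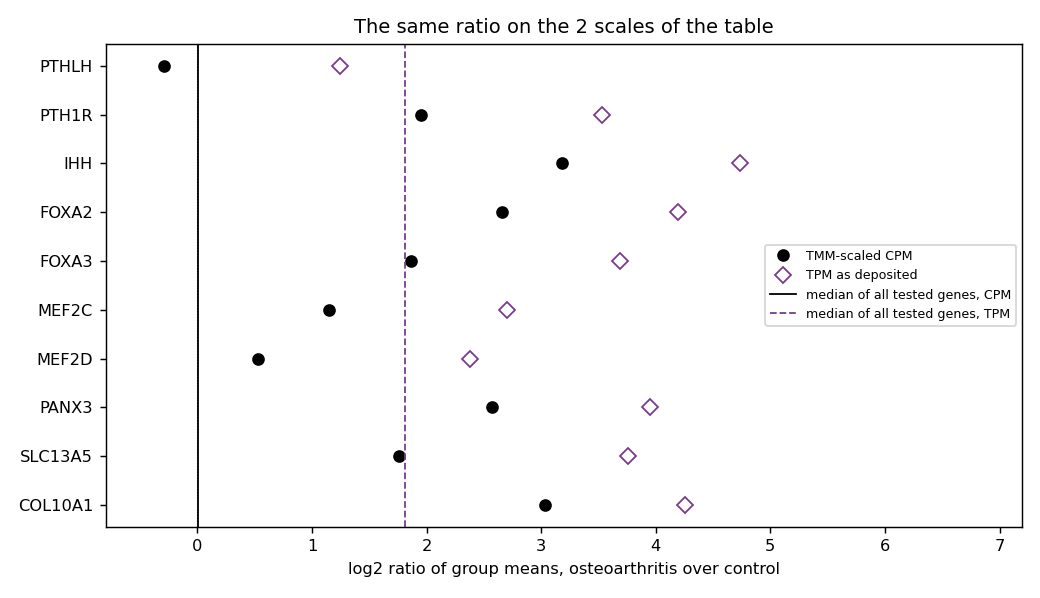
Log2 ratio of group means, osteoarthritis over control, in CPM (filled points) and in deposited TPM (open diamonds). Lines give the median of all tested genes, 1.81 for ratios of mean TPM and 0.0049 for fitted log2 fold changes, drawn for CPM. Each TPM ratio exceeds its CPM ratio, and PTHLH, below 0 in CPM, is above 0 in TPM but under the TPM median.

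The scale of the table therefore sets the size of each difference. IHH had a log2 ratio of group means of 4.73 in TPM, which was 2.93 above the median gene, beside 3.18 in CPM. COL10A1 was at 4.25 in TPM and 2.45 above the median gene, and PANX3 at 3.95 and 2.14. MEF2C was at 2.70 and 0.90, and MEF2D at 2.38 and 0.58. PTHLH at 1.25 was 0.56 under the median gene.

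Further genes of the pathway were read from lists that were chosen with earlier results of these data known. Their counts beside the shares of all genes are therefore descriptive and no independent test. Of 20 further genes of hypertrophy and mineralisation, 0 were called by edgeR. At an unadjusted edgeR p under 0.05, 7 were higher, as were 7.52% of all tested genes, and 2 were lower. The median log2 fold change was 0.65 beside 0.0049 for all genes. Summed CPM of the 20 was 2086, 5697, 2186 and 7453 in control replicates 1 to 4 and 8043 to 11679 in osteoarthritis. Control replicates 1 and 3 were thus the lowest, as for the bone and macrophage lists, and replicate 4 came close to osteoarthritis. ALPL, IBSP and SP7 are also in the osteoblast list, HDAC4 among PTH1R signalling genes and MEF2A among the relatives of the 10 genes. The counts called of the 20 were 4 by DESeq2, 0 by limma-voom and 13 with sample weights. Of all 16020 genes, these fits called 836, 119 and 3329. ENPP1, which makes the mineralisation inhibitor pyrophosphate, had the smallest p, with 67.8, 50.1, 66.2 and 114.6 CPM in control replicates 1 to 4 and 184.5, 140.7, 208.9 and 187.0 CPM in osteoarthritis replicates 1 to 4 (log2 fold change 1.27 ± 0.28, edgeR adjusted p = 0.087). MMP13, a collagenase, SMPD3, a sphingomyelinase of mineralising matrix, and the receptor FGFR3 followed at 2.89 ± 1.00, 2.53 ± 0.90 and 1.14 ± 0.41 (edgeR adjusted p = 0.23, 0.24 and 0.25). Of the 20, 6 did not overlap between groups, all with osteoarthritis above, which held for 5.69% of all tested genes. Among them were ENPP1, MMP13, SMPD3 and the phosphatase ALPL.

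For PTH1R signalling, 24 listed genes showed no call by edgeR, DESeq2 or limma-voom, and 4 by limma-voom with sample weights, which called 3329 of all 16020 genes. The list covers the Gs, protein kinase A and salt-inducible kinase route and also other genes, such as GNAQ, GNA11, ARRB1 and ARRB2. Their median log2 fold change was 0.0050, and 0 higher and 2 lower had an unadjusted edgeR p under 0.05. Those were CRTC2, a coactivator of CREB (-0.45 ± 0.19, edgeR adjusted p = 0.31), and HDAC4, a deacetylase that represses MEF2C in mouse chondrocytes (-0.55 ± 0.24, edgeR adjusted p = 0.32). HDAC4 was at 108.5, 89.9, 120.5 and 79.6 CPM in control replicates 1 to 4 and at 75.1, 89.7, 49.8 and 58.1 CPM in osteoarthritis replicates 1 to 4, with overlap. With library size as the only scaling both turned to the other sign, at 0.19 and 0.03. The kinase subunit PRKACB and the adenylyl cyclase ADCY5 were at 0.65 ± 0.33 and -1.26 ± 0.65 (edgeR adjusted p = 0.39 and 0.40).

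Of 14 hedgehog genes, which receive and transmit the IHH signal, 1 was called by edgeR. This was HHIP, a hedgehog-binding inhibitor induced by the pathway (log2 fold change 2.69 ± 0.33, edgeR adjusted p = 0.014, and up to 0.060 with osteoarthritis replicate 1 or 4 left out). PTCH1, which binds IHH and is itself induced by the pathway, was at 200.4, 81.4, 193 and 154 CPM in control replicates 1 to 4 and at 641, 698, 231 and 483 CPM in osteoarthritis replicates 1 to 4 (1.71 ± 0.42, edgeR adjusted p = 0.11). Both were lowest among osteoarthritis libraries in replicate 3, where IHH was also lowest. That is not particular to hedgehog genes. In CPM the same library was lowest for COL10A1, PTH1R, PANX3, SLC13A5, FOXA2, FOXA3, PTHLH and the cartilage matrix sum, but not for MEF2C or MEF2D. KIF7, a kinesin of the hedgehog pathway in cilia, was lower in every osteoarthritis library than in any control but not called (-0.83 ± 0.27, edgeR adjusted p = 0.20). Such a downward separation held for 5.52% of all tested genes. GLI1, a transcriptional target, was at 0.34 ± 0.56 (edgeR adjusted p = 0.81) and below 0 without osteoarthritis replicate 2 or with sample weights. The list median was 0.20.

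Of 7 listed relatives of the 10 genes, 4 were tested. MEF2A was at 0.65 ± 0.31, MEF2B at -0.62 ± 0.61, PANX1 at -0.77 ± 0.46 and PANX2 at -1.30 ± 0.67 on the log2 scale, all with overlap of the groups (edgeR adjusted p from 0.37 to 0.67; 0 of 4 at an unadjusted p under 0.05). None was called by DESeq2 or limma-voom, and 3 were called with sample weights. PANX1 had a mean of 5.97 ± 3.43 CPM in controls and 3.47 ± 1.29 CPM in osteoarthritis (SD, n = 4 each). The difference between relatives was not tested.

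Profiles over the 8 libraries were compared by the root mean square difference of log2 CPM, after each gene was centred on its own mean. Among pairs of the 10 genes, PTH1R and SLC13A5 were closest (0.36), followed by IHH and FOXA2 (0.38) and by PTH1R and FOXA3 (0.39). COL10A1 was at least 1.41 from each of the others. Over all genes with a symbol whose log2 CPM averaged 2 or more, the closest to IHH were SLC6A12, a betaine transporter (0.39), SCUBE1 (0.39) and CHADL (0.40). The closest to SLC13A5 were SLC35D1, a nucleotide-sugar transporter needed for chondroitin sulphate in mouse cartilage (0.13), SLC44A2 (0.17) and the potassium channel KCNMA1 (0.19). SLC35D1 and KCNMA1 themselves rose in osteoarthritis (1.72 ± 0.27 and 1.94 ± 0.32, edgeR adjusted p = 0.037 and 0.039), and both lost the call in the 6 fits that left out a library other than control replicate 4 or osteoarthritis replicate 3. PTH1R was closest to EFHD1 (0.26), TMEM52 (0.27) and the guidance cue NTN1 (0.27). PANX3 was closest to ISLR (0.30), the calcium channel TRPV4 (0.33) and the collagen COL11A1 (0.35). TRPV4 also rose (2.37 ± 0.41, edgeR adjusted p = 0.044), and lost the call with any library but osteoarthritis replicate 3 left out. COL10A1 was closest to the matrix gene MATN3 (0.67), GPX3 (0.71) and the lysyl oxidase relative LOXL4 (0.81). MEF2C was closest to ATP6V0E1 (0.15), MTMR10 (0.19) and ELL2 (0.19), and PTHLH to C17orf49 (0.34), CNRIP1 (0.35) and ORC1 (0.37). These distances describe 8 libraries that differ in depth, cartilage content and other cells, and carry no test. The profiles include the difference between groups, so a close gene shares that difference by selection. The calls of SLC35D1, KCNMA1 and TRPV4 are therefore no separate evidence. Among all tested genes, edgeR called 0.225% higher in osteoarthritis.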

How the data were processed

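Libraries from pig condylar cartilage cells, 4 control and 4 osteoarthritis, were grouped by their titles. Per the submitters' processing notes, Salmon 1.1.0 and STAR 2.7.9a were among the tools and Sscrofa11.1 was the build, and neither order nor roles are given. The authors' deposited table holds estimated counts (whole numbers, rounded here as a safeguard), TPM, log2 TPM and effective lengths that its header credits to Salmon. The deposited log2 values were not used. The filter that left 18898 genes, and the strand setting, are not given in the sources used here.

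Genes were filtered with filterByExpr (minimum count 10), scaled by TMM and fitted in edgeR 4.0.16 (R 4.3.3; quasi-likelihood test, robust) on the group alone. P-values of all 16020 genes entered one Benjamini-Hochberg adjustment, with calls made at 0.05. Fold changes are log2 values followed by ± the standard error, taken as their size over the square root of F. DESeq2 1.42.0 and limma 3.58.1 were alternatives. The procedure was tested on simulated data. Counting error is part of the spread of low genes.

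Gene lists, 13 in all, covered the pathway and the cells a sample could hold. The 10 genes and the lists were chosen with earlier results of these data known. Named genes were the 10, every called gene of each list, up to 4 further genes per list by smallest p, and the 3 closest profiles (mean log2 CPM of at least 2) for 7 of the 10. MMP9, ACP5, KDR, GLI1, ALPL and COL2A1 were named after their values were seen or as references. Gene positions are those of RefSeq for Sscrofa11.1, matched through Entrez identifiers for all 10. GNAS has 2 rows in the table, of which the one with more counts was used.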

Additional observations from a re-analysis of the deposited data

Results flagged for a closer look

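COL10A1 in control replicate 4, at 2209.6 CPM, stood far from the other controls, the nearest of which had 315 CPM. The gap took up 0.877 of the range of the 4 controls, above the critical value of Dixon's test for 4 values. That ratio was taken on CPM without logs, and on a log scale the gap takes up less of the range. Of 20 groups of 4 values examined (10 genes in 2 groups) this was the 1 that stood out, and chance gives about 1 in 20.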

How the results depend on the processing

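The count of genes called was 99, and 214 with library size alone, 836 by DESeq2, 3329 by limma-voom with weights for samples, 31 with control replicates 1 and 3, the most alike controls, summed, 39 with osteoarthritis replicates 1 and 2 summed, 5 with both pairs summed (the last 2 added after the values were seen), and 14 to 152 with 1 library left out. Of the 10 genes, 0 were called, against 6 with library size alone, 8 by DESeq2, 8 with the weights, and 0 to 1 with 1 library left out. The cause was not tested. Library size alone moved the median over all genes from 0.0049 to 0.65 (log2), and called 1.16% of genes higher. PTHLH turned to 0.36 under that scaling, and the other 9 kept their direction under each of the 20 alternatives in which they were tested. Same-numbered samples did not deviate together (correlations of their deviations from -0.34 to -0.018), which cannot show whether they share an animal. With the number as a replicate block 1 gene and 0 of the 10 were called. The count of genes without overlap was 6, and 6 to 8 with a library left out (6.51% to 9.16% of all genes), 9 in TPM and 9 with library size alone (17.0% of all genes), alternatives added after the values were seen. CRTC2 and HDAC4 turned to 0.19 and 0.025 with library size alone, and GLI1 to -0.24 with sample weights and to a range of -0.0034 (without osteoarthritis replicate 2) to 0.68 with 1 library left out. Under the replicate block HHIP, PRG4, AFP, APOB, KRT14, TP63, COL17A1, ESRP1, SLC35D1, KCNMA1 and TRPV4 lost their calls (adjusted p from 0.054 to 0.31). PTHLH was left out by the stricter filter. PTHLH, FOXA2 and FOXA3 rest on the fewest counts (42, 82 and 84 over the controls), and the part of depth in their errors was not tested.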
